A study of Mus musculus with 96 samples.

Results

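The 10 genes described here encode proteins of the neuronal synapse and were chosen by symbol, without a threshold on any measured value. They are *Nrgn*, *Snap25*, *Cplx1*, *Syt1*, *Syn1*, *Vsnl1*, *Camk2a*, *Slc17a7*, *Gad1*, and *Sncb*, and all 10 were found among the 41575 gene symbols of the deposited count table. Bulk RNA was sequenced from 16 frozen tissues of mice aged 3 weeks by MuSeq, in which each RNA is barcoded at reverse transcription, the samples are pooled, and reads come mainly from the ends of polyadenylated transcripts. Each tissue was represented by 3 wild-type and 3 *Scx*-/- libraries, 96 libraries in all. *Scx*-/- mice lack scleraxis, a transcription factor of tendon and ligament, in every cell. The sources used here name neither the deleted part of the allele, nor sex, nor which tissues were taken from one animal. Therefore, p-values describe the spread between libraries, which may be partly technical. Values are CPM, a gene's count scaled to the total count of its library.

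At a chemical synapse, an action potential opens calcium channels in the axon terminal, and calcium makes neurotransmitter-filled vesicles fuse with the plasma membrane. On the receiving side, calcium entering through receptors binds calmodulin and activates kinases that adjust the strength of the connection. Cortex and hippocampus are rich in both compartments, and excitatory neurons that release glutamate outnumber inhibitory neurons that release GABA in both. Fewer neurons and less RNA per neuron cannot be told apart in bulk libraries.

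Upstream sequences are shown for 3 members, because *Nrgn* and *Sncb* had the largest differences between the brain regions and *Syn1* is a known example of a neuronal gene carrying a site for the repressor REST. Each line gives the 250 bases before the annotated start, 5′ to 3′ on the strand of the gene, from RefSeq on GRCm38.p6. *Nrgn* lies on the minus strand at chr9:37552746-37552995, *Sncb* on the minus strand at chr13:54766596-54766845, and *Syn1* on the minus strand at chrX:20920919-20921168. Capitals mark CAGCACC, a stretch of the REST element, and TGACG, the core of the cAMP response element, or their reverse complements.
Nrgn: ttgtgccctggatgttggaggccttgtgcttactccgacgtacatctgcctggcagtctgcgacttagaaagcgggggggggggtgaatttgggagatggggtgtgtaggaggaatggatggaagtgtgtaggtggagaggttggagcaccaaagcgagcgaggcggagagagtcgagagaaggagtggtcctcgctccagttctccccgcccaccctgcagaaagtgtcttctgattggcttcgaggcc
Sncb: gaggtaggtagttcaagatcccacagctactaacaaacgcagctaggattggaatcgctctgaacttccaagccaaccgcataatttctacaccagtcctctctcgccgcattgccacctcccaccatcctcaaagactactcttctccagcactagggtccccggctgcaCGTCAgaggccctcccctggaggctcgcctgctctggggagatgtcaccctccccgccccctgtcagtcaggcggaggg
Syn1: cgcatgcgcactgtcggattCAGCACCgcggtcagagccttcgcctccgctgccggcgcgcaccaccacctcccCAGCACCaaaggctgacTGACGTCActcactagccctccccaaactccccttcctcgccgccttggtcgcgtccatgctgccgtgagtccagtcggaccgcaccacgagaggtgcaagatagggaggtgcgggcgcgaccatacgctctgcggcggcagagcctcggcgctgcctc

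Promoters of 300 bases were found for 8 of the 10 members (10 promoters, since *Syt1* and *Vsnl1* had more than 1 each). CAGCACC, searched on both strands, occurred in 1 of the 10 member promoters, that of *Syn1*, at -230 to -224 and at -176 to -170 from the start, and in 7.14% of the 32851 promoters in the table. The same letters followed closely by GGACAG, the other part of the REST element, occurred in 0 of the 10 member promoters and in 0.10% of all promoters. TGACG occurred in 3 of 10, those of *Cplx1*, *Sncb*, and *Syn1*, against 20.8% of all promoters. In *Syn1* its hits on both strands overlapped. GGGCGG, the box bound by Sp1, occurred in 7 of 10 member promoters against 35.7% of all promoters, and TATAAA in 1 of 10, that of *Gad1*, against 13.6%. Promoters of 1 gene can share sequence. These matches describe the letters in the window only.

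By the GENCODE annotation of GRCm38, *Nrgn* spans chr9:37544492-37552904, *Cplx1* chr5:108518554-108550024, *Vsnl1* chr12:11325242-11436613, and *Sncb* chr13:54758860-54766595, all on the minus strand and without an overlapping gene. For *Nrgn* and *Syn1* this annotation places the start further upstream than RefSeq does, so that the printed bases lie partly within the annotated gene. *Snap25* (chr2:136713453-136782428, plus strand) overlaps a processed pseudogene, *Gm14053*, and *Syt1* (chr10:108497650-109010982, minus strand) overlaps *Gm5136*, a coding gene on the same strand. *Syn1* spans chrX:20860511-20921004 on the minus strand, *Slc17a7* chr7:45163949-45176142 and *Gad1* chr2:70553072-70602014 on the plus strand. *Slc17a7* overlaps *Mir7055*, a microRNA gene on the same strand. How reads in overlaps were shared is not known, so counts of *Snap25*, *Syt1*, *Syn1*, *Slc17a7*, and *Gad1* carry that uncertainty.

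Depth limited what could be seen. Cortex libraries held 616505 to 1658192 counts, hippocampus libraries 118567 to 511781, and the 84 libraries of the other 14 tissues 11244 to 1015500. In hippocampus, each *Scx*-/- library was deeper than each wild-type library (255264 to 511781 against 118567 to 184695 counts). *Scx* itself had 80 counts over 12 wild-type libraries and 9 counts in 1 *Scx*-/- library, and it was at 0 in all *Scx*-/- brain libraries and in 5 of 6 wild-type ones, so it could not check the genotype labels of the brain. Markers followed the labelled regions. Of 12 markers of cortical excitatory neurons, 7 were higher in cortex by edgeR's quasi-likelihood test (adjusted p under 0.05), including *Cux2* and *Tbr1*, and 0 were lower. Of 12 hippocampal markers, 7 were lower in cortex and 0 higher, led by *Spink8*, *Dsp*, and *C1ql2*.

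Outside the brain, libraries of 2 tissues went against or beyond their labels, by markers named after the values had been seen. The libraries labelled adipose held 43.3% to 55.3% of their counts (median 51.5%) in pancreatic acinar markers, which encode digestive enzymes. *Adipoq*, the adipocyte hormone adiponectin, had 1 count there, *Plin1* and *Cfd* had 3 each, and *Cidec* had 18. All 4 of these adipocyte markers were highest in the libraries labelled vascular, where *Adipoq* averaged 895 CPM. The vascular libraries also held *Eln* (9490 to 24298 CPM), the elastin gene of artery walls, at the highest mean of the 16 tissues, and the study left vascular tissue out of its later comparisons. Acinar markers reached 8.62% of counts in 1 spleen library, 4.12% in intestine, 3.93% in stomach, and at most 0.352% elsewhere. For the other 12 tissues, every marker checked was highest in its own tissue, except *Matn1* of cartilage and *Ager* of lung, which were at 0 there. Calls outside the brain are therefore given below with and without the adipose and vascular libraries, and the names of these 2 groups stand for their labels.

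The 10 genes together took 12866 to 15074 CPM in the 6 cortex libraries (median 13996) and 8820 to 10628 CPM in the 6 hippocampus libraries (median 9726). Outside the brain, the mean sum over the 6 libraries of a tissue ranged from 7.24 CPM in liver to 314 CPM in rectum. Single libraries set both ends. Without the highest library of each tissue, the mean sum was 202 CPM in rectum, below 218 CPM in lung, and the lowest was 2.46 CPM in adipose, below 4.55 CPM in liver. The 2 brain regions held between 92.2% (*Camk2a*) and 99.6% (*Cplx1*) of all counts of a member. When each tissue counted equally by its mean CPM, the brain share was lowest for *Camk2a* at 84.1% and highest for *Slc17a7* at 97.8%. *Nrgn* was detected in 63 of 84 libraries outside the brain and *Gad1* in 12.

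**Figure D1:**
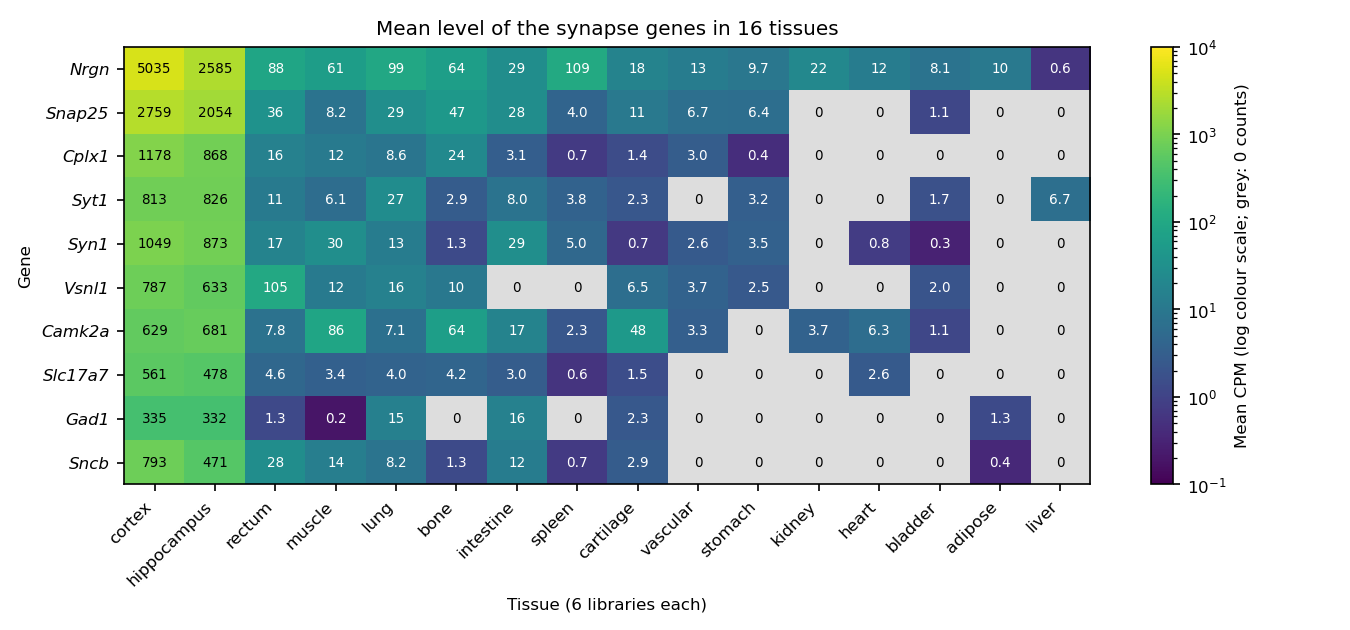
Mean CPM of each synapse gene (rows) in each of 16 tissues (columns, 6 libraries each), with the value printed in the cell and a log colour scale. Cortex and hippocampus stand apart in every row, while *Camk2a* reached 86.5 CPM in muscle and *Nrgn* 109 CPM in spleen. *Vsnl1* reached 105 CPM in rectum, mostly from *Scx*-/- replicate 1.

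The first comparison asked where the 2 brain regions differed. Cortex was compared with hippocampus over 6 libraries each, with genotype as a covariate. Of the 10 members, 4 were higher in cortex and 0 lower, beside 0.708% of the 17514 genes tested that were higher and 0.228% that were lower. The members' median log2 difference was 0.46, and that of all genes tested was also 0.46, whereas the 3033 genes with at least 100 CPM in a group, a range that holds all members, had a median of 0.16, and 3.1% of those were higher and 0.989% lower. The median of all genes moved with the scaling, to 0.28 with RLE factors, 0.32 with library totals, and -0.04 in DESeq2. The split of calls moved with it, from 124 higher and 40 lower to 77 and 69 with RLE, 81 and 62 with library totals, and 142 and 120 in DESeq2. For this reason small differences below are given with the scalings under which they were lost.

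On the receiving side of the synapse, *Nrgn* encodes neurogranin, which holds calmodulin at dendritic spines when calcium is low. In cortex its levels were 5732, 4852, and 4817 CPM in the wild-type libraries and 5612, 4668, and 4531 CPM in the *Scx*-/- libraries. In hippocampus they were 2269, 2431, and 2420.1 CPM in wild-type and 2946, 2780.5, and 2664 CPM in *Scx*-/- libraries. Every cortex library was above every hippocampus library. The difference was 2.18-fold (log2 1.12, SE 0.11, edgeR adjusted p = 3.34e-20), and it was called in all 20 alternatives tried, with log2 differences between 0.82 and 1.34. *Camk2a*, the alpha subunit of the kinase that calcium-loaded calmodulin activates, ranged from 516 to 826 CPM in cortex (median 591) and from 434 to 894 CPM in hippocampus (median 714). These ranges overlapped almost fully, with a log2 difference of 0.03 (interval -0.35 to 0.41) whose sign turned with RLE, library totals, and DESeq2. *Vsnl1* encodes visinin-like 1, a neuronal calcium sensor. It spanned 657 to 889 CPM in cortex (median 777) and 347 to 842 CPM in hippocampus (median 652), and its log2 difference of 0.49 did not pass the test (adjusted p = 0.285, edgeR).

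Among the genes of the release machinery, *Snap25* encodes the SNARE protein of the plasma membrane that zips with syntaxin and synaptobrevin. Cortex libraries held 2638, 2927, and 2607 CPM in wild-type and 3120.3, 2413, and 2847 CPM in *Scx*-/- mice. Hippocampus libraries held 2421, 1998, and 1972 CPM in wild-type and 2263, 1905, and 1763 CPM in *Scx*-/- mice. The ranges touched, since 1 hippocampus library exceeded 1 cortex library. The log2 difference was 0.58 (SE 0.13, edgeR adjusted p = 0.00121). It was called in 15 of 20 alternatives. It was not called with RLE factors (adjusted p = 0.130, edgeR), library totals (0.0635), DESeq2 (0.0550), wild-type libraries alone (0.287, edgeR), or thinned libraries (log2 0.30, adjusted p = 0.730, edgeR).

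*Cplx1* encodes complexin, which clamps the assembled SNARE complex until calcium arrives. It lay between 904 and 1430 CPM in cortex (median 1189) and between 736 and 1203 CPM in hippocampus (median 818). The ranges overlapped through the wild-type hippocampus replicate 3 at 1203 CPM. The log2 difference of 0.60 (SE 0.17, edgeR adjusted p = 0.0388) was called in 5 of 20 alternatives, was lost with RLE, library totals, and DESeq2, and was also lost without any of 8 single libraries (adjusted p up to 0.179). *Syt1* encodes synaptotagmin, the calcium sensor that triggers fusion. Its 6 cortex libraries ran from 712 to 1000.1 CPM (median 782) and its hippocampus libraries from 531 to 948 CPM (median 877). The log2 difference was 0.13 (interval -0.22 to 0.49) and turned sign with RLE, library totals, and DESeq2.

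Of the vesicle proteins, *Syn1* encodes synapsin, which tethers vesicles to the cytoskeleton, and measured 706 to 1366 CPM in cortex (median 1073) against 649 to 1187 CPM in hippocampus (median 869). Its log2 difference of 0.43 did not pass (edgeR adjusted p = 0.311). The gene overlaps *Araf* and *Timp1*, which are annotated on the opposite strand, and the strand setting of the counting is not given in the sources used here. *Sncb* encodes beta-synuclein, a presynaptic relative of alpha-synuclein. Its cortex levels were 783, 865, and 712 CPM in wild-type and 896, 671, and 831 CPM in *Scx*-/- libraries. In hippocampus it measured 287, 401, and 476 CPM in wild-type and 472, 439.6, and 752 CPM in *Scx*-/- libraries. Only the last of these reached the cortex range. The log2 difference was 0.93 (SE 0.20, edgeR adjusted p = 0.000983), and it was called in 17 of 20 alternatives, all except thinned libraries and either genotype alone.

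The transmitter genes mark the kind of neuron. *Slc17a7* encodes VGLUT1, which fills vesicles with glutamate, and *Gad1* encodes the enzyme that makes GABA. *Slc17a7* ranged from 539 to 584 CPM in cortex (median 564) and from 325 to 551 CPM in hippocampus (median 510). Its log2 difference was 0.40 (interval -0.02 to 0.81, edgeR adjusted p = 0.498). *Gad1* ranged from 261 to 398 CPM in cortex (median 337) and from 203 to 469 CPM in hippocampus (median 322), with a log2 difference of 0.17 (interval -0.32 to 0.67). Within a library, the count of *Slc17a7* over that of *Gad1* was 1.7 ± 0.26 in cortex and 1.6 ± 0.64 in hippocampus (SD, n = 6), a difference smaller than the spread between libraries. *Gad1* overlaps an antisense gene, *Gad1os*, and reads from the pair cannot be told apart without strand.

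**Figure D2:**
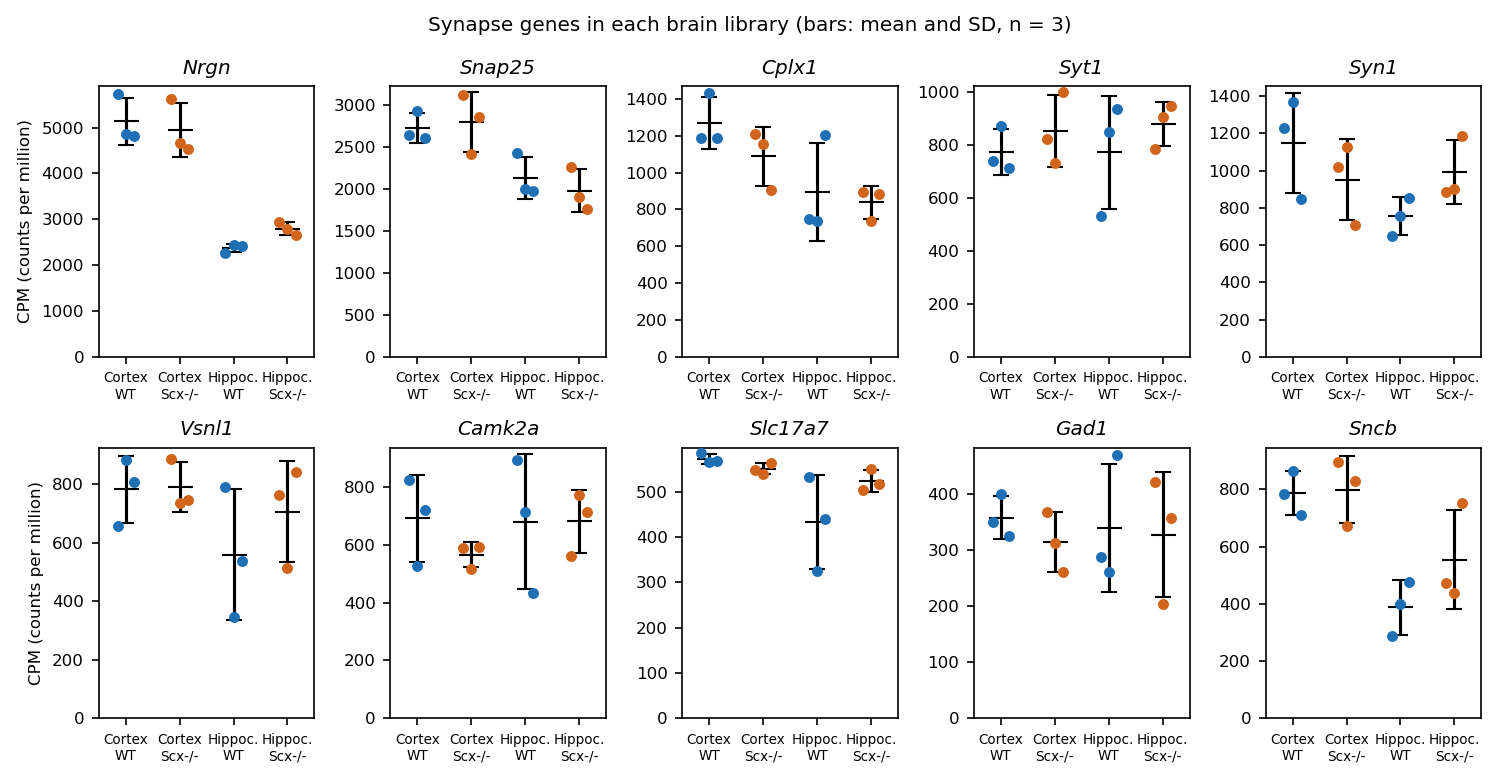
CPM of each synapse gene in each brain library (points), with the mean and SD of 3 libraries per group (bars); blue is wild-type and orange *Scx*-/-. Only for *Nrgn* do all cortex points lie above all hippocampus points, 4531 CPM or more against 2946 CPM or less.

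A comparison that needs no scaling between libraries is the share of each gene within the summed counts of the 10 genes. It was added after the values had been seen. *Nrgn* held 36.1% ± 2.0 of that sum in cortex and 26.4% ± 1.9 in hippocampus (SD, n = 6). The two-sided exact permutation test over libraries gave p = 0.00216, the smallest value that 6 against 6 libraries allow, and 0.0216 after adjustment over the 10 genes. The share ranged from 33.0% to 38.9% in cortex and from 24.1% to 28.6% in hippocampus, with no overlap. For *Sncb* the share was 5.69% ± 0.47 in cortex and 4.76% ± 1.30 in hippocampus, which did not pass the exact permutation test (adjusted p = 0.189). *Snap25* held 19.8% ± 1.4 in cortex and 21.1% ± 3.1 in hippocampus, and *Cplx1* 8.44% ± 0.97 and 8.85% ± 1.75, so neither was higher in cortex on this measure. Shares of the 10 genes sum to a fixed total, so a larger share of *Nrgn* lowers the others.

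**Figure D3:**
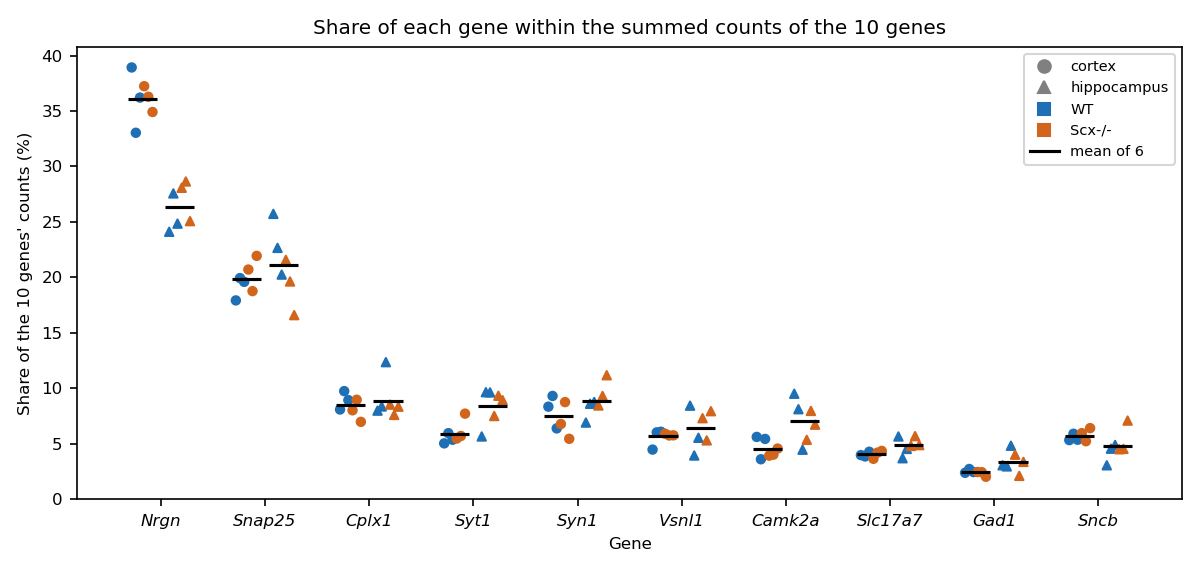
Share (%) of each synapse gene within the summed counts of the 10 genes, for each cortex library (circles) and hippocampus library (triangles); black lines are means of 6. *Nrgn* shares lay at 33.0% or more in cortex and at 28.6% or less in hippocampus.

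Other genes of the same pathways were read from lists chosen with earlier results of these data known. Of 24 tested genes of calcium and calmodulin signaling, 8 (33.3%) were higher in cortex and 0 lower (median log2 difference 0.46), beside 3.1% higher and 0.989% lower among all genes with at least 100 CPM in a group. With RLE factors or library totals 6 were higher and 1 lower, and with DESeq2 6 and 2. The lower ones were *Camk2b*, the beta subunit of CaMKII, in all 3 of these settings, and *Ppp3cb*, a calcineurin subunit, in DESeq2. The higher ones with TMM included *Camk2n1*, an inhibitor of CaMKII, at log2 1.84 (SE 0.13, edgeR adjusted p = 4.13e-38), *Gap43*, a calmodulin-binding protein of growth cones, at 1.81 (SE 0.38), and *Camk2n2*, a second CaMKII inhibitor, at 1.73 (SE 0.39). *Nrgn* is itself on that list. Of 22 genes of SNARE and release machinery, 2 were higher, namely *Stx1a*, the syntaxin partner of *Snap25*, at log2 1.82 (SE 0.29), and *Cplx3*, which was at 0 in all hippocampus libraries and at 53.1 CPM in wild-type and 35.5 CPM in *Scx*-/- cortex. The counts were the same with RLE and library totals, whereas DESeq2 also called *Rims3* higher and *Doc2b* lower. Of 20 vesicle protein genes, 0 were called in either direction (median 0.09), while *Syn2*, a second synapsin gene, was called lower with RLE, library totals, and DESeq2.

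On the glutamate list, 2 of 22 genes were higher in cortex and 2 lower, and the same 4 genes were called with RLE, library totals, and DESeq2. *Arc*, an immediate early gene that removes AMPA receptors, was higher at log2 2.12 (SE 0.41), as was *Cacng3*, an AMPA receptor auxiliary subunit, at 1.56 (SE 0.37). *Gria1*, an AMPA receptor subunit, was lower at -1.88 (SE 0.22), and *Cnih2*, another auxiliary subunit, at -0.89 (SE 0.21). On the GABA list, 3 of 24 were higher and 1 lower, against 2 and 1 with RLE or library totals and 4 and 2 with DESeq2. The higher ones included *Gabrd*, a subunit of the GABA-A receptor, at 3.42 (SE 0.61), and *Pvalb*, a calcium buffer of fast-spiking interneurons, at 1.27 (SE 0.32), whose call was lost under those 3 settings. The lower one was *Gabra5*, a subunit known for its abundance in hippocampus, at -1.58 (SE 0.39).

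Of 15 general neuron markers, 0 were called, with a median log2 difference of 0.30. Their summed level was 6958 to 8505 CPM in cortex and 6266 to 7776 CPM in hippocampus. Astrocyte and microglia markers had 0 of 10 and 0 of 9 called. Oligodendrocyte markers also had 0 of 10 called, but their sum spread from 10709 to 33369 CPM over the hippocampus libraries and from 10874 to 17810 CPM over the cortex libraries. Pancreatic acinar markers, which brain should lack, summed to 16.6 to 186 CPM in hippocampus and 0 to 22.5 CPM in cortex, and 1 of 12, *Ctrb1*, was called. The part of these in the results above was not tested, apart from leaving the acinar markers out of the totals, which kept the mean sum of the members at 13940.2 CPM in cortex and 9802 CPM in hippocampus.

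The study profiled these tissues to learn what loss of *Scx* changes. In cortex, 0 of the 10 members were called between *Scx*-/- and wild-type libraries, where the background was 0% of 16842 genes, and in hippocampus 0 of 10 were called where it was 0.00708% of 14117 genes. At an unadjusted p under 0.05, 0 members passed in cortex and 1 in hippocampus, beside 3.68% and 4.12% of all genes. DESeq2 called 0 members in either region. On simulated counts, the edgeR fit called 32% of 2-fold changes in cortex. In hippocampus it called 3% of 2-fold and 35% of 4-fold changes, so a change of that size could be missed. With edgeR, *Aldoc*, a glycolytic enzyme of astrocytes, was the 1 gene called in hippocampus, at 659.5 CPM in wild-type and 1454 CPM in *Scx*-/- libraries.

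In cortex the intervals were narrower than in hippocampus. The *Nrgn* log2 difference was -0.03 (interval -0.25 to 0.19), and that of *Snap25* was 0.07 (interval -0.18 to 0.32). The largest in size belonged to *Camk2a* at -0.26 (interval -0.64 to 0.11), with 692 ± 151 CPM in wild-type and 566 ± 43 CPM in *Scx*-/- libraries (SD, n = 3). *Syn1* followed at -0.25 (interval -0.57 to 0.08). The median over the 10 members was -0.03 and over all genes 0.04. *Slc17a7* was the steadiest member, with 572 ± 11 CPM in wild-type and 550.3 ± 12 CPM in *Scx*-/- cortex.

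In hippocampus all 10 log2 differences were positive, with a median of 0.37, beside a median of 0.42 over all genes tested in the same fit. Over the 3033 genes with at least 100 CPM in a group, the median was 0.17. *Nrgn* stood at 2373 ± 91 CPM in wild-type and 2797 ± 142 CPM in *Scx*-/- libraries, and every *Scx*-/- library was above every wild-type library. Its log2 difference was 0.40 (SE 0.20, unadjusted p = 0.0497, adjusted p = 0.762, edgeR). *Sncb* had the largest value at 0.66 (interval -0.09 to 1.41), followed by *Syn1* at 0.55 (interval -0.04 to 1.14) and *Vsnl1* at 0.52 (interval -0.15 to 1.18). These signs moved with the scaling: *Snap25*, *Cplx1*, *Camk2a*, and *Gad1* turned negative with RLE factors and DESeq2. The deeper *Scx*-/- hippocampus libraries move with genotype, and their part was not tested.

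Whether the genotype difference itself differed between the regions was tested as an interaction, which called 0 of the 10 members against 0.00571% of 17514 genes. *Syn1* had the smallest p among them (log2 -0.80, SE 0.34, unadjusted p = 0.0171, adjusted p = 0.756, edgeR), and *Nrgn* came next at -0.43 (SE 0.21, unadjusted p = 0.0410). In these terms *Syn1* was lower in *Scx*-/- cortex, at 950.4 against 1147 CPM, and higher in *Scx*-/- hippocampus, at 992 against 754 CPM.

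**Figure D4:**
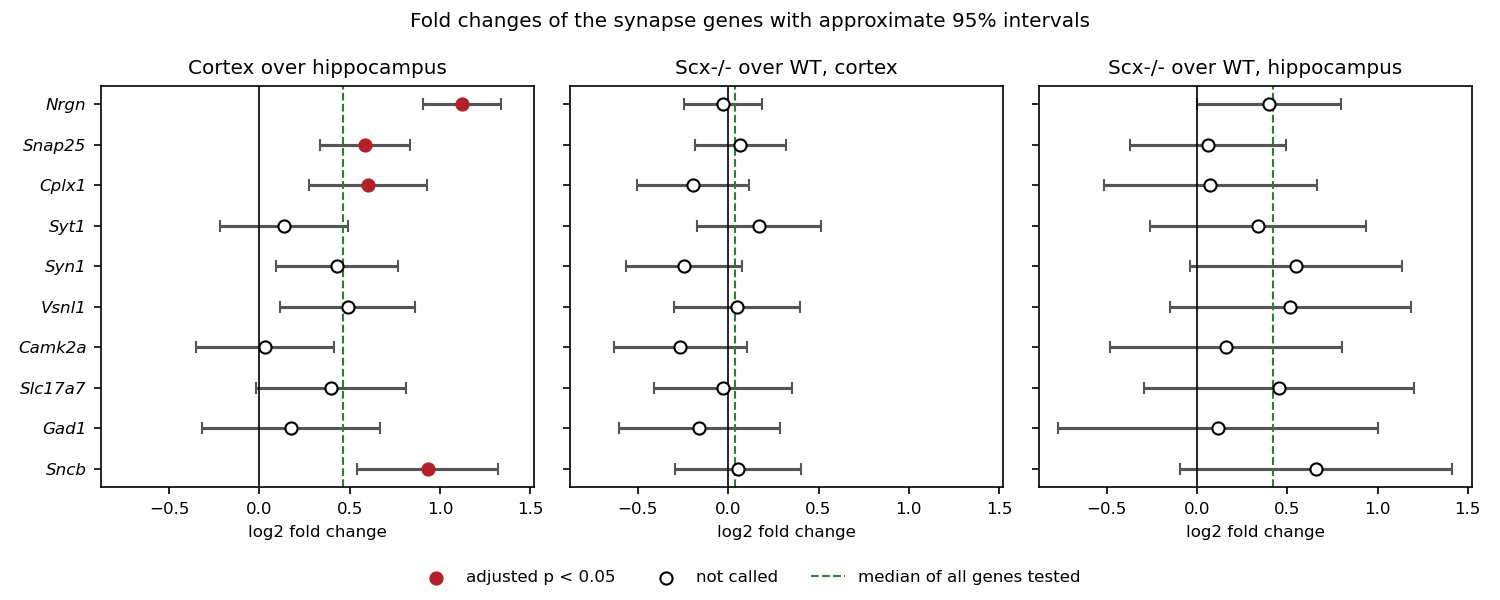
Log2 fold changes of the synapse genes (points) with approximate 95% intervals (lines) for cortex over hippocampus (n = 6 each) and for *Scx*-/- over wild-type in each region (n = 3 each). Red points had an adjusted p under 0.05, and the dashed line is the median of all genes tested. In the left panel the intervals of *Nrgn* (0.90 to 1.34) and *Sncb* (0.54 to 1.32) lie above that median of 0.46.

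In the other 14 tissues no member passed the test between genotypes either. Over all 16 tissues, 115 pairs of a member and a tissue had at least 1 count and could be tested, 45 could not, and the lowest adjusted p was 0.413. The shares of genes called were 0% in bone and intestine, 0.0072% in spleen, 0.00727% in lung, 0.0091% in adipose, 0.0222% in cartilage, 0.0329% in vascular tissue, and 0.0391% in heart. They were 0.0482% in muscle, 0.0609% in stomach, 0.112% in bladder, 0.195% in kidney, 0.441% in rectum, and 0.442% in liver. Of the 115 pairs, 4 (3.48%) had an unadjusted p under 0.05, beside 4.01% of all 219996 tests of a gene in a tissue. They were *Nrgn* in hippocampus and 3 pairs with few counts. *Syt1* in liver was at 0 in all 3 wild-type libraries and at 3.90, 15.3, and 20.7 CPM in the *Scx*-/- libraries, from 3, 9, and 12 counts, which were 24 of the 25 member counts in liver (unadjusted p = 0.0414, adjusted p = 0.746, edgeR). *Cplx1* in muscle had 5 counts, in wild-type replicates 1 and 2 (adjusted p = 0.771, edgeR). *Vsnl1* in rectum had 45 of its 55 counts in *Scx*-/- replicate 1 (unadjusted p = 0.00294, adjusted p = 0.413, edgeR). Most of these pairs rested on a few counts, so a difference of ordinary size was not detectable at this depth.

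The last comparison asked which tissue outside the brain stood above or below the mean of the other 13. Only *Nrgn*, *Snap25*, and *Camk2a* passed the filter on low counts, which keeps genes that reach a minimum in as many libraries as a tissue has. When the libraries of 1 tissue were left out in turn, *Nrgn* passed each time, *Camk2a* failed without muscle, and *Snap25* failed without bone. Hence the calls of *Camk2a* in muscle and of *Snap25* in bone are not independent of the filter, and their levels are given as a description, with no test. The other 7 members are given as values. No member was called in adipose, bladder, heart, kidney, stomach, or vascular tissue, where 14.8%, 13.5%, 12.4%, 17.3%, 13.5%, and 9.78% of the 10466 genes were called. *Camk2a* levels in muscle were 132, 70.0, and 73.8 CPM in wild-type and 117, 54.4, and 71.6 CPM in *Scx*-/- libraries, from 303 counts in all. It was present in all 6 libraries, whereas it was at 0 in all 6 libraries of adipose, liver, and stomach. Of the 10466 genes tested, 10.8% were called higher in muscle. Since several tissues had no count of *Camk2a*, its fitted values elsewhere depend on the prior count and are no measure of fold.

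Muscle wild-type replicate 1 stood apart, with 30409 counts and 855 CPM over the 10 members against 88.0 to 141 CPM in the other 5 muscle libraries. It carried 296 CPM of *Nrgn*, from 9 counts, and 164 CPM of *Syn1*, from 5 counts. General neuron markers summed to 921 CPM there and to 90.7 CPM or less in the other muscle libraries. *Camk2a* lay between 54.4 and 117 CPM in the other 5 muscle libraries. Markers of peripheral neurons summed to 36.7 to 526 CPM in wild-type and 5.77 to 44.0 CPM in *Scx*-/- muscle (7 and 9 of 18 detected), with *Ret* at 74 counts, *Nos1* at 28, *Uchl1* at 27, and *Prph* at 0. Schwann cell markers summed to 427 to 3584 CPM and 1202 to 2258 CPM (9 and 10 of 10 detected), and *Pmp22* had 1696 counts. The part of nerve in the *Camk2a* level was not tested.

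*Camk2a* was also present in all 6 cartilage libraries, at 41.3, 56.4, and 14.5 CPM in wild-type and 120, 14.6, and 39.9 CPM in *Scx*-/- mice. The test called it higher there (log2 3.77, SE 0.64, edgeR adjusted p = 3.18e-07, against 10.9% of genes). In bone it was called too (log2 3.72, adjusted p = 5.94e-05), but 17 of its 20 counts lay in wild-type replicate 3, and without that library the call was lost (log2 0.38, adjusted p = 0.640). Of genes tested in bone, 9.57% were called higher.

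*Nrgn* was found in all 6 spleen libraries, at 143, 155, and 127 CPM in wild-type and 94.0, 80.3, and 55.1 CPM in *Scx*-/- mice. It was higher in spleen than in the other tissues (log2 2.60, SE 0.59, edgeR adjusted p = 0.000225, against 13.8% of genes) and was called in all 15 alternatives. *Nrgn* made up 87.1% of the 210 member counts in spleen, where *Vsnl1* and *Gad1* were at 0. Each wild-type spleen library was above each *Scx*-/- one, but the test between genotypes did not call it. Peripheral neuron markers summed to 0 to 52.7 CPM in spleen. In lung, the levels were 99.4, 85.6, and 75.2 CPM in wild-type and 82.6, 185, and 65.2 CPM in *Scx*-/- libraries. The call there (log2 2.08, adjusted p = 0.00958, edgeR, against 11.8% of genes) held in 12 of 15 alternatives. Leaving out lung *Scx*-/- replicate 2 was among those that lost it (log2 1.77, adjusted p = 0.0801, edgeR). In liver, *Nrgn* had 1 count over the 6 libraries and was called lower (adjusted p = 0.00204, edgeR, against 4.64% of genes), and the call was lost without replicate 1 of all 14 tissues (adjusted p = 0.0538).

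*Snap25* was low outside the brain. It was present in all 6 bone libraries at 8.31 to 84.9 CPM (median 51.8), in all 6 rectum libraries at 17.3 to 76.2 CPM (median 27.2), and in all 6 lung libraries at 13.2 to 65.2 CPM (median 22.4). It was called higher than in the other tissues in rectum (log2 2.90, edgeR adjusted p = 0.000154, against 11.9% of genes) and in lung (log2 2.57, edgeR adjusted p = 0.00101), and these calls held in all 15 alternatives of each. As *Snap25* was at 0 in all libraries of adipose, heart, kidney, and liver, its fitted values in all tissues depend on the prior count and are no measure of fold. In intestine the call on 11 counts (log2 2.13, adjusted p = 0.00997, edgeR, against 10% of genes) held in 11 of 15 alternatives. Leaving out intestine wild-type replicate 2 was among those that lost it (adjusted p = 0.0728, edgeR). The call in cartilage, on 16 counts (log2 1.61, adjusted p = 0.0448, edgeR), held in 3 of 15 alternatives and was lost without any of 4 single libraries and without the adipose and vascular libraries (adjusted p = 0.0848). That fit kept every other tested call of a member in the 12 tissues it held. Peripheral neuron markers summed to 102 to 442 CPM in rectum, led by *Hand2*, *Stmn2*, and *Vip* with 63, 52, and 39 counts. In lung they summed to 42.8 to 243 CPM, of which *Stmn2* had 129 counts, and *Prph*, *Hand2*, and *Vip* were at 0. In bone they summed to 60.7 to 301 CPM. The part of nerve in these levels was not tested.

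The remaining members were sparse outside the brain. *Vsnl1* reached 105 CPM as a mean in rectum, but 45 of its 55 counts lay in *Scx*-/- replicate 1, at 572 CPM, and the other 5 rectum libraries ran from 0 to 34.7 CPM. *Sncb* was present in all 6 rectum libraries at 9.55 to 55.2 CPM (median 24.5), and *Syt1* in all 6 lung libraries at 8.79 to 49.7 CPM (median 23.4). *Syn1* had 18 counts in 5 of 6 intestine libraries. Mean levels of *Slc17a7* were 4.60 CPM or less outside the brain, against 478 CPM in hippocampus. *Gad1* was at 0 in 8 of the 14 tissues, and its highest mean, 15.8 CPM in intestine, rested on 5 counts.

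**Figure D5:**
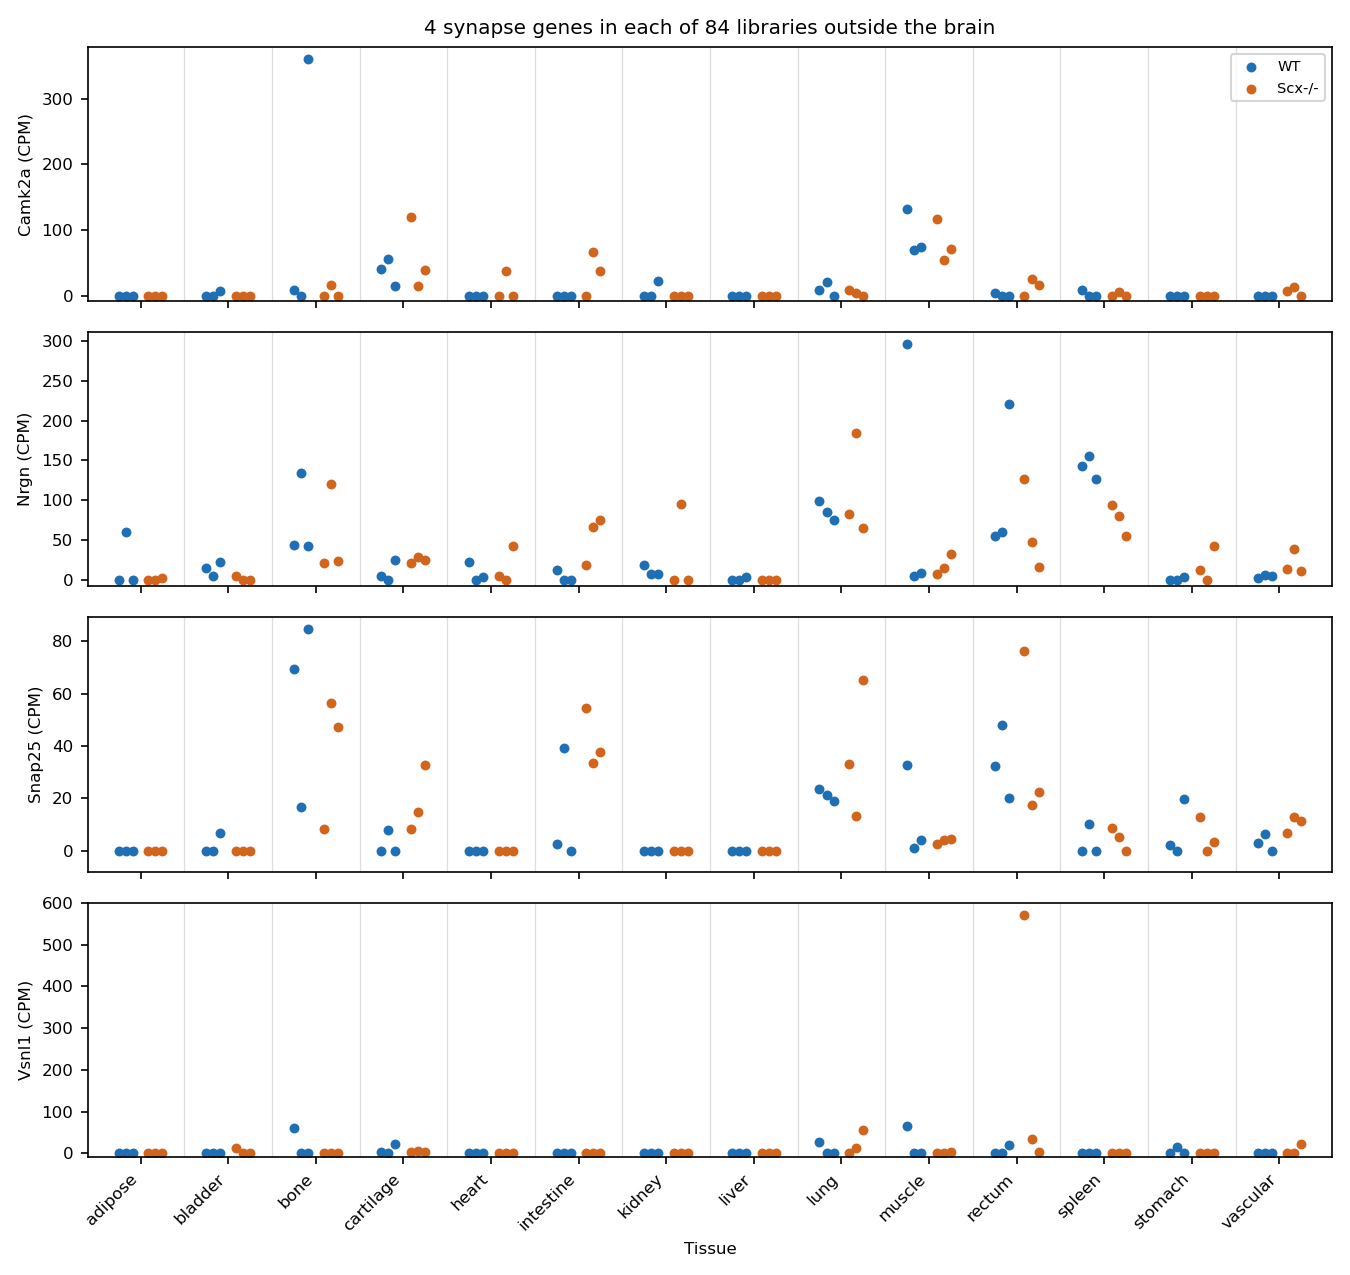
CPM of *Camk2a*, *Nrgn*, *Snap25*, and *Vsnl1* in each of the 84 libraries outside the brain (points; blue wild-type, orange *Scx*-/-), by tissue. Muscle holds *Camk2a* in all 6 libraries at 54.4 to 132 CPM, spleen holds *Nrgn* in all 6 at 55.1 to 155 CPM, and the 3 highest points are *Vsnl1* in 1 rectum library at 572 CPM, *Camk2a* in 1 bone library at 361 CPM, and *Nrgn* in 1 muscle library at 296 CPM.

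Genes outside the group with the most similar pattern were found by Pearson's r of log2(mean CPM + 1) over the 32 groups among 17412 genes, as a description. For the sum of the 10 members these included *Cdk5r2*, an activator of the kinase Cdk5 (r = 0.93), and *Mobp*, a myelin gene (r = 0.92). For *Gad1* they were *Slco1c1* (r = 0.98), *Mpped1* (r = 0.97), and *3110035E14Rik* (r = 0.95). The 32 groups share the split into 4 brain groups and 28 others, and they differ in depth.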

How the data were processed

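Raw read counts per gene symbol were deposited by the authors without normalization, as whole numbers made by mapping to mm10 with Bowtie2 and counting with HTSeq; their versions, the annotation, and the strand setting were not stated there. Groups came from sample titles. CPM was calculated on library totals, and tests used edgeR 4.0.16 (R 4.3.3) with TMM factors, estimateDisp, robust glmQLFit, and Benjamini-Hochberg adjustment over all genes with at least 1 count in the libraries compared. DESeq2 1.42.0 was an alternative. Intervals are the log2 fold change ± 1.96 SE.

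The members and gene lists were chosen with earlier results of these data known. Outside the brain, the fit designed without a filter called many unchanged genes when tested on simulated data, so the filterByExpr alternative is reported; it called fewer, though still some. Genes named are the 10 members, up to 3 per direction of each pathway list with the largest change among called genes of at least 10 CPM, the marker genes with the most counts in a tissue, and the 3 most similar genes; *Aldoc*, *Camk2b*, *Ppp3cb*, *Rims3*, *Doc2b*, *Syn2*, the markers given at 0, and the adipose, vascular, cartilage, and lung markers were named after their values were seen. Some genes that this rule would name are not reported here. In the main fits, replicate numbers were not used to pair libraries. The versions of Python (3.11.15), numpy (2.4.6), pandas (2.3.3), and scipy (1.17.1) are those used for values and exact tests. Depth ran from 11244 to 1658192 counts; gene positions are from GENCODE on GRCm38.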

Additional observations from a re-analysis of the deposited data

Results flagged for a closer look

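The 6 libraries of a tissue were checked for a library far from the others (Dixon's test at its 95% critical value) in 31 sets, each a member in cortex, hippocampus, or a tissue where it was called. Chance flags about 1 in 20 sets, and 4 were found. *Cplx1* in hippocampus wild-type replicate 3 stood at 1203 CPM (172 counts), the others at 736 to 894 CPM. *Camk2a* in bone wild-type replicate 3 stood at 361 CPM (17 counts), the others at 0 to 16.1 CPM. *Nrgn* in liver wild-type replicate 3 stood at 3.53 CPM from 1 count, the others at 0, a pattern that this test always flags. *Nrgn* in lung *Scx*-/- replicate 2 stood at 185 CPM (42 counts), the others at 65.2 to 99.4 CPM.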

How the results depend on the processing

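Of the 4 members called higher in cortex, 2 were called with RLE scaling, library totals, DESeq2, or the *Scx*-/- libraries alone, and 1 with thinned libraries or the wild-type libraries alone; leaving out single libraries gave 3 to 4. Between genotypes and in the interaction, 0 members were called in every alternative. Outside the brain, leaving out libraries gave 1 to 3 calls in bone, 1 to 2 in cartilage, lung, and rectum, 0 to 1 in intestine and liver, and 1 in muscle and spleen. These counts include *Snap25* in bone and *Camk2a* in muscle, which needed that same tissue to pass the filter. For those 2 the counts are therefore no test. With only genes at 0 in all libraries removed, calls were 1 in adipose, 2 in liver, 4 in bone, cartilage, intestine, and muscle, 7 in rectum, and 8 in lung; that setting tests all 10 members rather than 3. With dispersion estimated within glmQLFit as well, they were 1 in cartilage, 2 in liver, 3 in rectum, and 4 in lung. Cartilage had 1 call with RLE, library totals, the replicate block, or the adipose and vascular libraries left out (an alternative chosen after seeing the data), and rectum 2 with library totals. The replicate block gave 4 members between cortex and hippocampus and 0 between genotypes; same-numbered libraries did not deviate together (correlations -0.19 to 0.04), and the labels name no shared animal. Using medians, the brain held 95.3% of summed levels, and on TMM-scaled totals the members summed to 14979 CPM in cortex and 7993 CPM in hippocampus. The causes were not tested.

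Signs turned only for values that no fit called. Between genotypes in hippocampus with RLE, totals, filterByExpr, and DESeq2, *Snap25* gave -0.12, -0.11, -0.060, and -0.12, and *Cplx1* -0.11, -0.097, -0.043, and -0.11. *Camk2a* gave -0.019 with RLE and -0.018 with DESeq2, and *Gad1* -0.059, -0.052, and -0.060 with RLE, totals, and DESeq2. Between cortex and hippocampus, *Syt1* gave -0.061, -0.023, and -0.064 with RLE, totals, and DESeq2, and *Gad1* -0.024, -0.15, and -0.025 with RLE, thinning, and DESeq2. *Camk2a* gave -0.17, -0.12, -0.078, -0.17, and -0.18 with RLE, totals, filterByExpr, DESeq2, and *Scx*-/- libraries alone, and *Slc17a7* -0.18 when thinned. Without single libraries, the lowest and highest values were -0.11 and 0.12 for *Camk2a* between regions. Between genotypes in hippocampus they were -0.10 and 0.36 for *Camk2a*, -0.056 and 0.30 for *Cplx1*, -0.12 and 0.38 for *Gad1*, and -0.048 and 0.17 for *Snap25*. In cortex they were -0.13 and 0.077 for *Nrgn*, -0.049 and 0.0062 for *Slc17a7*, -0.015 and 0.17 for *Snap25*, -0.032 and 0.18 for *Sncb*, and -0.049 and 0.13 for *Vsnl1*. *Gad1* and *Sncb* had as few as 34 counts in a hippocampus library.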
